A study of Mus musculus with 4 samples.

Results

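The genes examined here encode the anchoring complex that fixes basal keratinocytes to the underlying basement membrane: the laminin-332 chains Lama3 and Lamb3, the collagens Col17a1 and Col7a1, the plakins Dst and Plec, the integrin chains Itga6 and Itgb4, and the tetraspanin Cd151. A p63 peak was assigned to a gene when its summit lay in the gene body or within 50 kb of it, with mm10 gene coordinates. The 9 genes were taken from 21883 protein-coding genes, and their windows held 48 of the 10616 peaks listed for WT and 48 of the 14593 listed for alphaKO. p63 binding had been measured by ChIP-seq with the antibody EPR570 in epidermis of dorsal skin, taken from mice at postnatal day 0. The groups were wild type (WT) and the genotype that the labels call p63 alphaKO (alphaKO), each with 1 ChIP library and 1 peak list. What was deleted in alphaKO beyond the label, the strain, the sex and how many animals went into a library was not given in the sources used here. Because each genotype had a single ChIP library, none of the genotype differences below could be tested, and the values describe these libraries.

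A hemidesmosome is a rivet-like plaque on the basal face of a keratinocyte. Integrin α6β4 and type XVII collagen span the membrane, the plakins plectin and BP230 (from Plec and Dst) tie them to keratin filaments inside the cell, and CD151 associates with the laminin-binding integrins. Outside, the integrin binds laminin-332, a trimer that holds the products of Lama3 and Lamb3 and that type VII collagen fastens to the dermis through anchoring fibrils. Inherited loss of these proteins causes forms of epidermolysis bullosa, in which skin blisters. p63 is a member of the p53 family and a master regulator of stratified epithelia.

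The sequences below show DNA within p63 peaks that lay at transcription starts of these genes. The WT summits at Lamb3 and Col17a1 fell outside the printed bases. RefSeq promoters (250 bases before to 50 after a listed start, GRCm38.p6, the assembly that mm10 names) were at hand for 5 of the 9 genes, 8 promoters in all. Each was searched for the p53 family response element, a pair of adjacent decamers of the p53 consensus, which reads the same on both strands, by the match with the fewest mismatches over 20 bases. Of these 8 promoters, 5 overlapped a peak in both lists: 1 of Dst, both of Lamb3, 1 of Cd151 and that of Col17a1. The bases before the start are printed 5′ to 3′ for a promoter of Cd151 (chr7:141467112-141467361, plus strand), of Dst (chr1:34160010-34160259, plus strand) and of Lamb3 (chr1:193301744-193301993, plus strand). Capitals mark the best match to the element, and for Dst the first of 2 equally good ones.

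Cd151: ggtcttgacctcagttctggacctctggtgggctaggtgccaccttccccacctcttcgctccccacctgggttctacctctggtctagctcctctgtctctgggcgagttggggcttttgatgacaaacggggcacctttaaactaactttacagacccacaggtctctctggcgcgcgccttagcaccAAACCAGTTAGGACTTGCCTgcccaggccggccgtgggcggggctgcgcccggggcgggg

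Dst: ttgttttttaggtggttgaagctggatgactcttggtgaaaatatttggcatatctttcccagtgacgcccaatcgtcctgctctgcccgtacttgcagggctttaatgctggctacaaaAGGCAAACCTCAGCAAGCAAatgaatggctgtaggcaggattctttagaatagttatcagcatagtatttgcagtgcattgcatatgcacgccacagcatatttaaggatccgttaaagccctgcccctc

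Lamb3: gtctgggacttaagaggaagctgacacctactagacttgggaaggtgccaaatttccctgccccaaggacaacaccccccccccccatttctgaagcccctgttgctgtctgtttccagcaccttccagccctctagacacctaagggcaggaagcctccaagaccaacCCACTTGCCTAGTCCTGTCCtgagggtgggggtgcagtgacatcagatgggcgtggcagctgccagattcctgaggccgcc

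The best match in the Col17a1 promoter lay just after the start (chr19:47692018-47692037, minus strand), and is given alone.

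Col17a1: ACCTTTGTCAGGACTTGTTT

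Cd151 had the closest match. It differed from the element at 2 of 20 bases, and at most 2 mismatches were found in 0.798% of all 32851 listed promoters. Among listed promoters that held a summit, as this one did, the share was 4.05% (WT) and 9.24% (alphaKO). The match lay 60 to 41 bases before the start, and the alphaKO summit fell inside it, 47 bases before the start, while the WT summit, 40 bases before the start, lay 1 base beyond its end. Its downstream decamer, GGACTTGCCT, fitted the consensus at every base. The Col17a1 promoter held an exact decamer of nearly the same letters, GGACTTGTTT, within a 20-base match with 4 mismatches. The alphaKO summit, 11 bases after the start, fell inside that match, and the WT summit, 8 bases before the start, lay 13 bases from it. An exact decamer occurred in 8.36% of all promoters, and in 9.93% (WT) and 16.2% (alphaKO) of those that held a summit.

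The matches in the Dst and Lamb3 promoters were of a common kind. Each had 4 mismatches, and at most 4 were found in 30.2% of all promoters. At Dst the summits lay 149 (WT) and 151 (alphaKO) bases before the start, 19 and 21 bases from the capitals. At Lamb3 the alphaKO summit, 73 bases before the start, fell inside the match, whereas the WT summit lay 587 bases before the start, although the peaks themselves covered nearly the same interval. Col7a1, with 5 mismatches, and the remaining promoters of Dst and Cd151 overlapped no peak in either list. A match describes letters and does not show which bases p63 contacted.

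**Figure D1:**
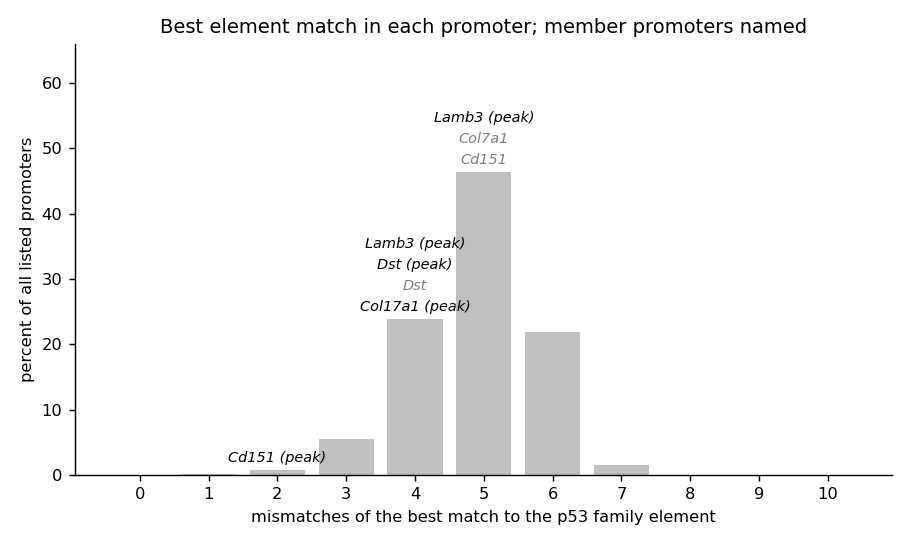
Grey bars give the percent of all 32851 listed promoters (vertical axis) by the number of mismatches in their best 20-base match to the p53 family element (horizontal axis). The names mark the 8 promoters of the genes described here, with "peak" where a p63 peak of both lists overlapped the promoter. The Cd151 promoter with a peak stands at 2 mismatches, and the others stand at 4 or 5, where most promoters lie.

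All 9 genes carried p63 peaks in both libraries, in the gene body or within 50 kb. Over all protein-coding genes, 47.1% had a WT summit in the same kind of window, 55.0% an alphaKO summit and 40.9% a summit of both lists. The count depended on the window: in gene bodies alone, 7 of the 9 genes had a peak in each list. Counting only peaks inside the gene or nearest to it, 8 did in each list. The shares of all genes under these narrower rules were not computed. The genes were longer than usual, with a median length of 49.5 kb against 17.2 kb over all protein-coding genes, and longer windows can hold more peaks. Per length, the windows held 26.0 peaks per Mb in each list, where the merged windows of all protein-coding genes held 5.37 (WT) and 7.01 (alphaKO). The windows also reached into or over 33 other protein-coding genes, and 17 of the 62 distinct sites lay inside such a gene or nearer to it than to the gene examined. The gene table used gives no exons, so exonic and intronic sites were not separated.

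The peaks stood somewhat above the middle of their lists, though in WT this depended on the window and the q threshold. Their median fold enrichment, the authors' ratio of the pileup at the summit to a local background, was 9.86 in WT, where the whole list had 8.44, and 19.8 in alphaKO, where the whole list had 15.5. The percentile of a peak is the percent of peaks of its own list with an equal or lower fold. The median percentile was 58.2 in WT and 61.7 in alphaKO. For peaks in gene bodies alone it was 51.4 in WT, near the middle of the list, and 62.6 in alphaKO. With both lists cut to −log10 q of at least 10 it was 52.4 and 61.9. The median fold in gene bodies was 8.68 in WT and 20.1 in alphaKO. Among the top 10.0% of their list were 10 of the 48 WT peaks (20.8%) and 11 of the 48 alphaKO peaks (22.9%). The local background recovered from pileup and fold had a median of 8.73 in WT and 6.66 in alphaKO in these windows. A fold of the same height therefore stood for different pileups in the libraries, and its part in differences of fold was not tested.

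Of the 62 sites, 34 were shared by both lists, 14 were listed in WT alone and 14 in alphaKO alone. Thus 70.8% of the peaks in these windows had a partner in the other list in either direction, with a Wilson 95% interval of 56.8 to 81.8. Over the whole lists 66.6% of WT peaks and 48.4% of alphaKO peaks had a partner. Such intervals cover counting error alone, and peaks of 1 window share a locus. The equal counts and shares depended on list length. With the alphaKO list cut to its 10616 peaks of highest fold, the length of the WT list, these windows held 38 alphaKO peaks. Then 62.5% of the WT peaks and 78.95% of the alphaKO peaks here had a partner. The shares over the whole lists were not computed at that length. Summits of shared sites lay a median of 8 bp apart, as over all 7054 shared sites, and 28 of the 34 (82.4%) lay within 20 bp, where 78.4% did over all shared sites.

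**Figure D2:**
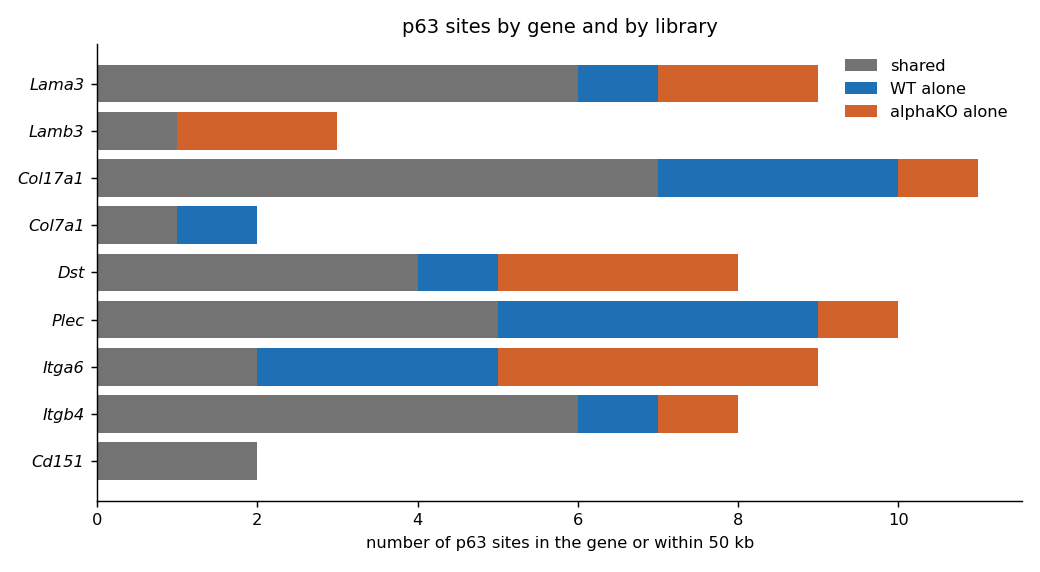
Bars give, for each gene on the vertical axis, the number of p63 sites in it or within 50 kb of it (horizontal axis), split into shared sites (grey), sites listed in WT alone (blue) and in alphaKO alone (orange). Col17a1 had the most sites with 11, Col7a1 and Cd151 had 2 each, and both Cd151 sites were shared.

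**Figure D3:**
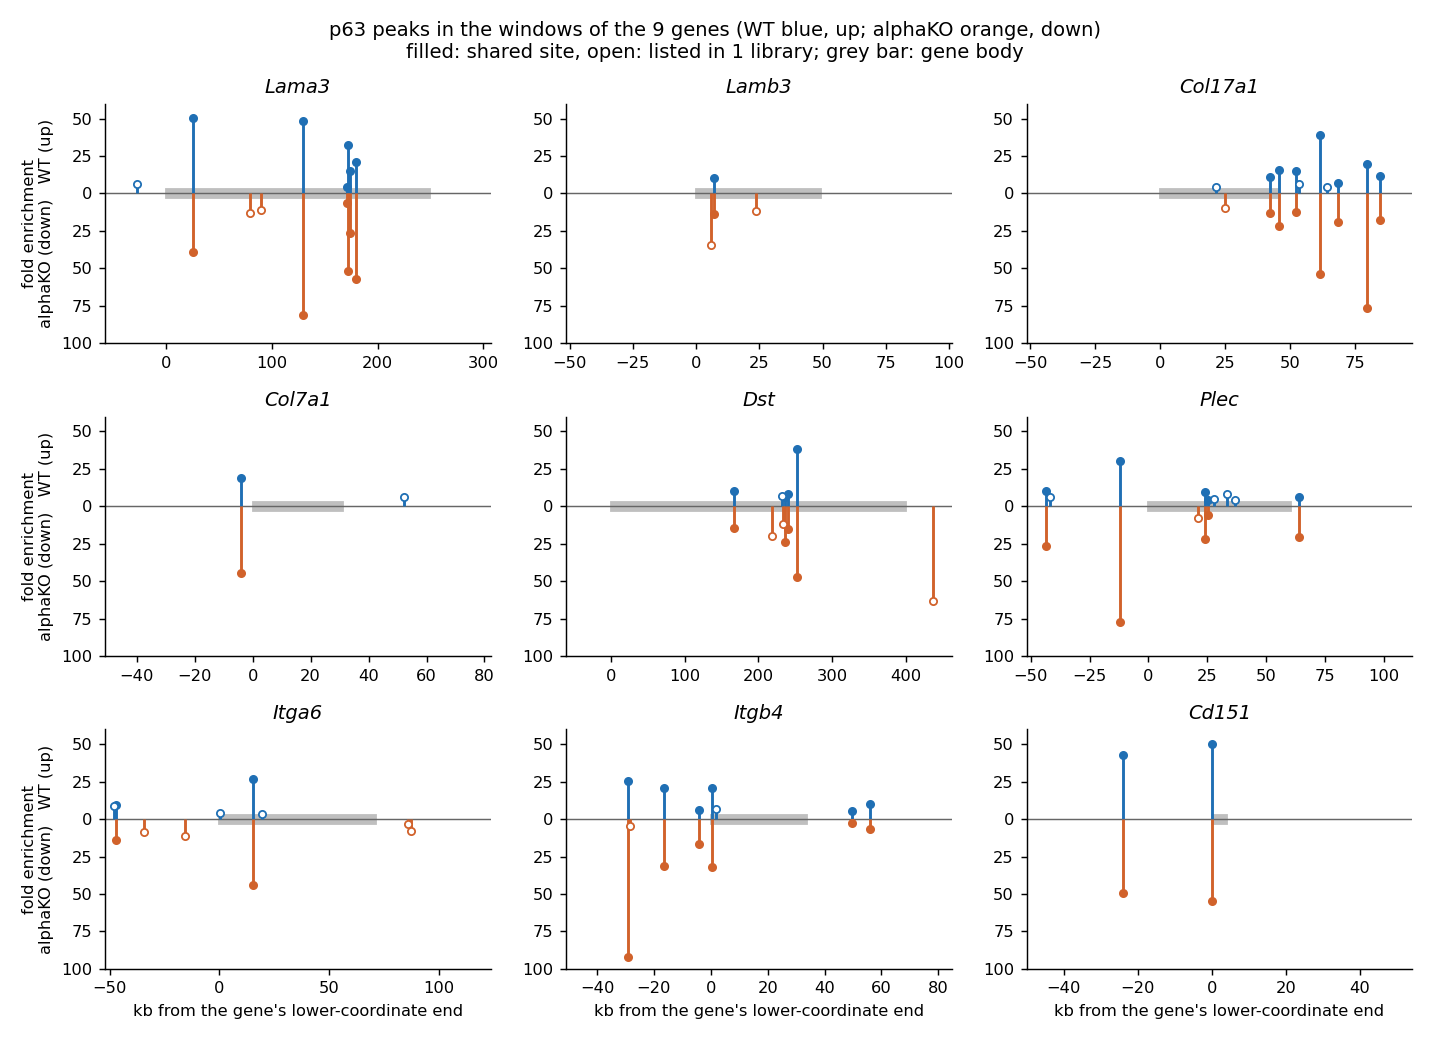
Each panel is 1 gene with its 50 kb flanks; the horizontal axis is the distance in kb from the gene's lower-coordinate end, and the grey bar is the gene body. On the vertical axis, stems give the fold enrichment of WT peaks upward and of alphaKO peaks downward, with filled heads for shared sites and open heads for sites in 1 list. Strong stems face each other at most genes, and the tallest open head is the alphaKO site beyond Dst at 63.5.

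Lama3 (chromosome 18, 12333417 to 12583013), which encodes the α3 chain of laminin-332, had 7 WT and 8 alphaKO peaks, and 6 of its 9 sites were shared. All 6 lay in the gene body. The strongest WT peak, at 12358959 to 12359477, had a fold of 50.3 (pileup 301, percentile 98.9), while alphaKO reached 39.2 there (12359002 to 12359519, pileup 361, percentile 86.2). In alphaKO the strongest peak lay at the site with summit 12463308 in both lists, with a fold of 81.0 (pileup 628, percentile 97.4) against 48.7 in WT (pileup 424, percentile 98.8). The order of these sites by fold, close in WT, was thus turned in alphaKO, whereas by pileup the second site was the stronger in both lists. The other 4 shared sites stood close together, 171, 172, 174 and 179 kb from the gene's lower end. In WT their folds were 4.50, 32.1, 14.9 and 20.8. The alphaKO folds, in the same order, were 6.33, 52.2, 26.5 and 57.4. By fold the weakest of these was the same in both lists, while the strongest was the second in WT and the last in alphaKO. By pileup the second was the strongest in both lists, with 269 in WT and 582 in alphaKO, where the last had 236 and 364.

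Sites of Lama3 in a single list were weak. In alphaKO alone, peaks with summits at 12412901 and 12423360 in the gene had folds of 13.0 and 10.9, percentiles 40.8 and 30.5. In WT alone, a peak 27.6 kb outside the gene, at 12305655 to 12305941 and inside the neighbour Ankrd29, had a fold of 6.14.

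Lamb3 (chromosome 1, 193294353 to 193343878), which encodes the β3 chain, had 1 WT peak and 3 alphaKO peaks. The shared site at its listed start, 193301241 to 193302156 in WT and 193301299 to 193302140 in alphaKO, had folds of 10.3 (pileup 104) and 13.7 (pileup 115). The percentiles were 60.5 and 43.6. The summits lay 514 bp apart, the largest distance among the 34 shared sites. The strongest alphaKO peak was a neighbouring one listed in alphaKO alone, at 193300001 to 193300376, with a fold of 34.1 (pileup 245, percentile 82.6). It lay 1810 bases before the listed start but inside the gene body, which begins before that start. A further alphaKO peak inside the gene, with summit 193317864, had a fold of 12.0.

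Col17a1 (chromosome 19, 47646341 to 47692042, minus strand), the gene of the transmembrane collagen BP180, had the densest window, with 10 WT and 8 alphaKO peaks and 7 shared sites. Of the WT peaks 8, and of the alphaKO peaks 5, lay outside the gene, all of them before its start. The shared site at the start counted as outside in WT and as inside in alphaKO, with summits 19 bp apart. The strongest WT peak, 16.0 kb before the start at 47707759 to 47708367, had a fold of 38.8 (pileup 481, percentile 97.3), and in alphaKO 53.9 (pileup 445, percentile 92.9). The strongest alphaKO peak lay 33.9 kb before the start, at 47725723 to 47726305, with a fold of 76.6 (pileup 471, percentile 97.0), against 19.7 in WT (pileup 183, percentile 85.9). This last site is nearer to the neighbour Sfr1, 5.75 kb away. Upstream of Col17a1 the stronger site was therefore the nearer one in WT and the farther one in alphaKO.

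The shared site at the Col17a1 start had folds of 15.5 (pileup 135) in WT and 21.7 (pileup 189) in alphaKO. Inside the gene, 3258 bases after the start, a shared site had 10.7 and 12.8. At 6.42 kb before the start the order was turned, with 14.9 in WT and 12.3 in alphaKO. The remaining shared sites, 22.6 and 39.0 kb before the start, both nearer to Sfr1, had WT folds of 7.09 and 11.4 and alphaKO folds of 19.4 and 17.99. Sites in WT alone had folds of 4.21 (in the gene), 6.50 and 4.35 (7.89 and 18.5 kb before the start), and the site in alphaKO alone, in the gene, had 9.98.

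Col7a1 (chromosome 9, 108953586 to 108984875), the gene of the anchoring fibril collagen, had no peak in its body in either list. Its shared site, at 108948877 to 108950297 in WT and 108948975 to 108950301 in alphaKO, lay 4.11 kb before the Col7a1 start and inside the neighbour Uqcrc1, a gene of the mitochondrial respiratory chain. The fold was 18.6 in WT (pileup 240, percentile 84.2) and 44.5 in alphaKO (pileup 302, percentile 89.1). A WT peak inside Pfkfb4, 20.9 kb beyond the gene, had 6.32 and no partner. Both sites thus lay inside other genes.

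Dst (chromosome 1, 33907888 to 34308662), which encodes BP230 in epidermis and uses alternative starts, had 5 WT and 7 alphaKO peaks and 4 shared sites. The strongest WT peak was the one at the listed start whose sequence is printed above, at 34159556 to 34160379. It had a fold of 38.3 (pileup 396, percentile 97.2) in WT and 47.2 (pileup 549, percentile 90.4) in alphaKO. The next sites before that start, at 12.1 and 16.7 kb, were weaker in WT, with 8.13 and 6.14, and had 15.3 and 24.1 in alphaKO. A shared site with summit 34074016 in WT had 10.2 and 14.6.

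By fold, the strongest alphaKO peak of the Dst window had no WT partner. It lay 36.0 kb beyond the gene's higher end, at 34344370 to 34344884, with a fold of 63.5 (pileup 340, percentile 95.1). By pileup, the shared peak at the printed start was the strongest in alphaKO, with 549. A pair of peaks 20.0 and 19.3 kb before the printed start stood in 1 list each without touching: a WT peak (34140152 to 34140461, fold 6.87) and an alphaKO peak (34140788 to 34141097, fold 11.8). A further alphaKO peak in the gene, with summit 34125744, had 20.1.

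Plec (chromosome 15, 76170974 to 76231378), the gene of plectin, had 9 WT and 6 alphaKO peaks and 5 shared sites. The strongest site of both lists lay 12.1 kb below the gene's lower end, at 76158198 to 76159096 in WT and 76158234 to 76159131 in alphaKO. It had folds of 30.1 (pileup 289, percentile 94.4) and 77.6 (pileup 605, percentile 97.1). In the gene, shared sites with WT summits 76195108 and 76196314 had 9.23 and 4.54 in WT and 21.7 and 5.72 in alphaKO. Of 5 WT peaks in the gene body, 3 had no partner, with folds of 4.76, 7.93 and 4.45, and 1 of 3 alphaKO peaks there, with 7.51, had none. In the flanks, a shared site 43.4 kb below the gene near BC024139 had 10.5 and 26.7, a WT peak near it had 6.39 and no partner, and a shared site inside Parp10 had 5.97 and 20.5.

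Itga6 (chromosome 2, 71786886 to 71858427), the α6 integrin gene, had the smallest share of shared sites, 2 of 9: 5 WT and 6 alphaKO peaks gave these. The strong one lay in the gene, 15.5 kb from its lower end, at 71802112 to 71802528 in WT and 71802110 to 71802578 in alphaKO. It had folds of 27.0 (pileup 251, percentile 92.7) and 44.0 (pileup 320, percentile 88.8), with summits 2 bp apart. The second, 47.0 kb below the gene, had 9.54 and 14.0. The other sites were weak. In WT alone they had 4.07 (0.062 kb inside the gene's lower end), 3.72 and 8.82. In alphaKO alone they had 8.58 and 11.3 below the gene, and 3.42 and 8.09 at the neighbour Pdk1.

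Itgb4 (chromosome 11, 115974725 to 116008412), the β4 integrin gene, had 7 peaks in each list and 6 shared sites. At its lower end both summits fell on the same base, 115974976, with folds of 21.0 in WT (pileup 205, percentile 87.6) and 32.0 in alphaKO (pileup 449, percentile 80.6). Below the gene, a site 4.28 kb away had 6.32 and 16.6. Inside the neighbour Sap30bp, shared sites 16.5 and 29.2 kb below Itgb4 had WT folds of 20.7 and 25.2 and alphaKO folds of 31.2 and 92.0. The farther of them was the strongest of both lists in this window, at percentiles 91.6 and 98.2, and an alphaKO peak beside it had 4.35 and no partner. Above the gene, sites inside H3f3b and Unk had 5.15 and 10.2 in WT and 2.55 and 6.78 in alphaKO. A WT peak in Itgb4 with a fold of 6.62 had no partner.

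Cd151 (chromosome 7, 141467362 to 141471481), the shortest of the 9 genes, had 2 peaks in each list, both shared and both strong. The site at its start, at 141467070 to 141467609 in WT and 141467036 to 141467570 in alphaKO, had folds of 50.4 (pileup 484, percentile 98.9) and 54.7 (pileup 393, percentile 93.1). It was the strongest WT peak of all 9 windows. The second site, 24.0 kb before the start and inside Pidd1, a p53-induced gene, had 43.1 (pileup 423) and 49.2 (pileup 430). The window also reached over 9 other genes, more than that of any other of the 9.

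**Figure D4:**
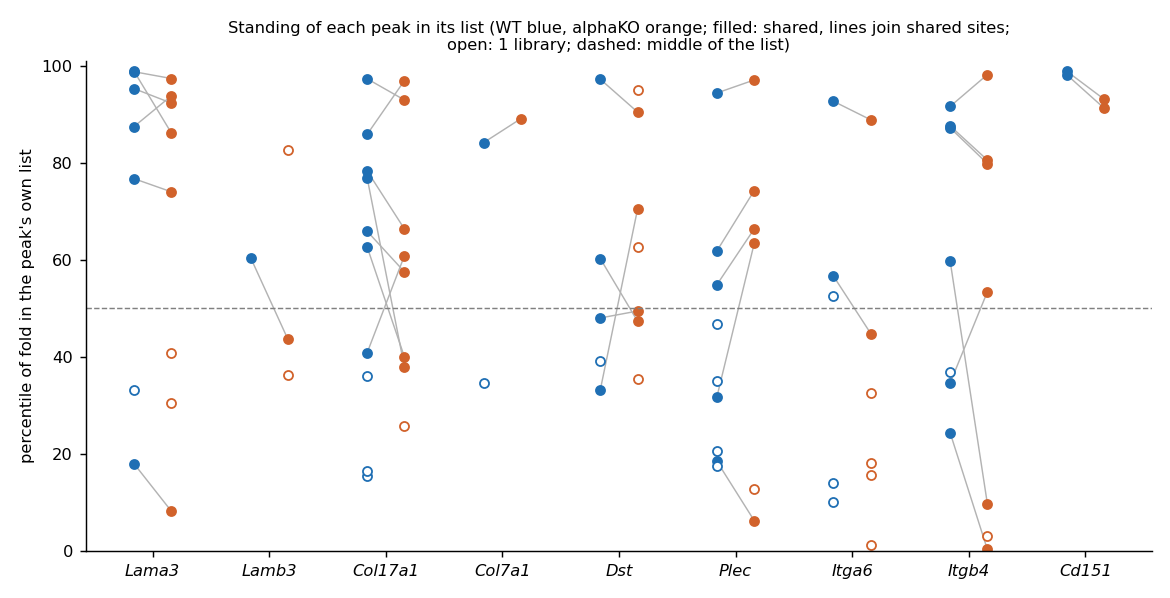
The vertical axis gives the percentile of each peak's fold in its own list, by gene along the horizontal axis, for WT (blue) and alphaKO (orange); lines join shared sites, open circles are sites in 1 list, and the dashed line is the middle of a list. No WT site without a partner lies above percentile 52.6, whereas alphaKO sites without one reach 95.1 at Dst and 82.6 at Lamb3.

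Sites in a single list were weak in WT and mixed in alphaKO. The 14 sites in WT alone had folds of 3.72 to 8.82 with a median of 6.23, where all WT peaks without a partner had a median of 4.79. The 14 in alphaKO alone had folds of 3.42 to 63.5 with a median of 11.1, where all alphaKO peaks without a partner had 12.8. Apart from the site beyond Dst and the one in the Lamb3 body before its listed start, the other 12 had folds of at most 20.1. In both groups 8 of 14 sites lay in a gene body of the 9 genes. A site absent from a list can lie under the threshold of that list.

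At shared sites the fold was mostly higher in alphaKO, as in the lists as a whole. Where the epitope of the antibody lies relative to the change in alphaKO was not stated in the labels, so a fold may not stand for the same amount of bound p63 in both genotypes. It was higher at 30 of 34 sites (88.2%), where 83.7% of all shared sites had a higher fold in alphaKO. The median ratio of the alphaKO fold to the WT fold was 1.55 at these sites and 1.68 over all 7054 shared sites. Read against that overall ratio, the sites had a median log2 difference of -0.12, from -1.77 to 1.22, and the quartiles over all shared sites were -0.50 and 0.52. The ratio was more than 2-fold above the overall ratio at 4 sites (11.8%) and more than 2-fold below it at 4 (11.8%). Over all shared sites these shares were 10.7% and 9.16%, so the counts lay near the background.

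The 4 sites above were those 16.7 kb before the printed Dst start (2.33 times the overall ratio), 33.9 kb before the Col17a1 start (2.30), in Sap30bp near Itgb4 (2.17) and in Parp10 near Plec (2.04). With pileup in place of fold, against an overall pileup ratio of 1.40, the Dst and Parp10 sites stayed above 2-fold, and the Col17a1 and Sap30bp sites did not (log2 differences of 0.87 and 0.43). The WT peaks at the Dst and Parp10 sites were weak, with pileups of 53 and 41 and percentiles 33.2 and 31.8. The 4 sites below were those in H3f3b (3.40 times below the overall ratio) and Unk (2.53) near Itgb4, the strongest WT site of Lama3 (2.16) and the site 6.42 kb before the Col17a1 start (2.03). The alphaKO peak in H3f3b was among the weakest of its list, with a fold of 2.55, percentile 0.295 and −log10 q of 3.55. With pileup the Lama3 site did not pass 2-fold (-0.23), while a weak Plec site, with WT summit 76196314, did (-1.30).

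**Figure D5:**
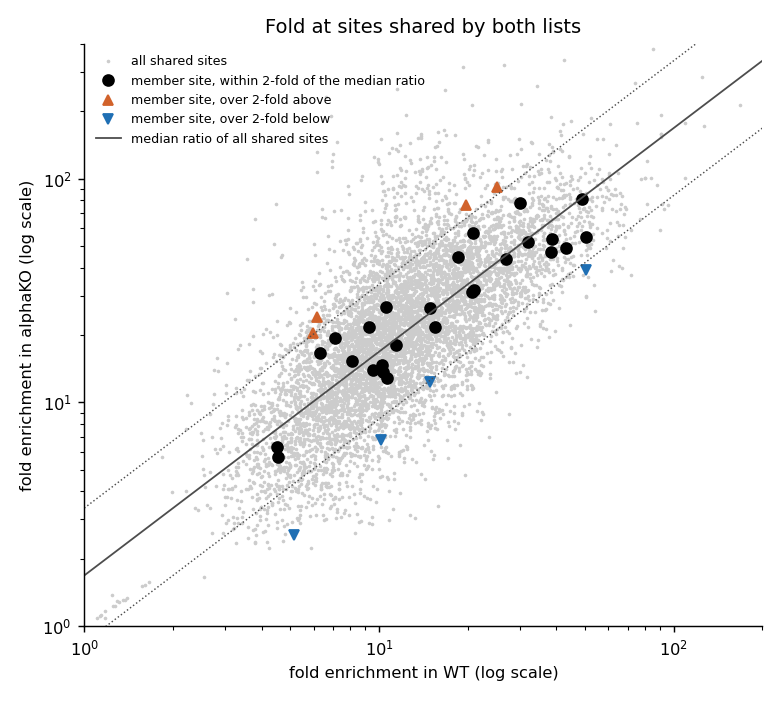
Each point is a site shared by both lists, with its fold in WT on the horizontal and in alphaKO on the vertical log axis; grey points are all 7054 shared sites, the line is their median ratio and the dotted lines are 2-fold above and below it. Of the 34 sites of the 9 genes, 26 lie between the dotted lines (black), 4 above (orange) and 4 below (blue).

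Most other genes in a list chosen around the basement membrane zone also carried p63 peaks. The list was broad and also held the keratin genes Krt5 and Krt14, and Fermt1, Exph5 and Klhl24. Of 18 such genes, 16 had a WT summit in the gene or within 50 kb, 17 an alphaKO summit and 16 both, where the shares over all protein-coding genes were 47.1%, 55.0% and 40.9%. Nid1, which encodes nidogen-1, had none in either list, and Col4a1, a type IV collagen gene, had peaks in alphaKO alone, the strongest 30.4 kb away with a fold of 19.02. Windows of neighbouring genes in the list can overlap, so a peak can count for more than 1 of them. Among lists of cell type markers read in the same window, 6 of 6 basal keratinocyte genes had a peak in both lists. These were not separate from the genes above: Krt5 and Krt14 were also among the 18, and Col17a1 is a gene examined here. Of 5 suprabasal genes, 4 had a WT peak, 4 an alphaKO peak and 3 both. Of 6 genes each, dermal fibroblast markers had 1 (WT) and 3 (alphaKO), melanocyte markers 3 and 3, and immune markers 3 and 4, beside the same 47.1% (WT) and 55.0% (alphaKO) of all genes. The fibroblast genes Dcn and Lum shared their strongest alphaKO peak. A peak near a gene does not measure its transcripts, so these counts do not show which cells were present.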

How the data were processed

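The study held 4 samples, a p63 ChIP and an input for each genotype; the inputs were not analysed here. Per the submitters' processing notes, the authors used Bowtie2 and MACS2 2.1.1.20160309 with the mm10 build; how duplicates were handled and which control each call had was not given in the sources used here. For each ChIP sample the authors deposited 1 peak list, per the file headers, with the pileup (a coverage signal) at the summit, −log10 of the p-value and q-value, the fold enrichment (a ratio to a local background) and the width. Lists hold no read totals, so depth is unknown. The smallest −log10 q in these windows was 10.8 in WT and 3.55 in alphaKO.

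Gene bodies came from RefSeq GRCm38.p6. Peaks were shared when each was the other's best partner by overlap of at least 1 bp. The local background was pileup plus 1, divided by fold, minus 1. Ratios at shared sites were divided by their median over all shared sites and counted beyond 2-fold. Near the window's limit, peaks within 5 kb inside had folds of 8.82 and 9.54 (WT) and 14.0 (alphaKO), and those within 5 kb outside 3.20 and 4.19 (WT). The genes and lists were chosen with earlier results of these data known. Sites named are the strongest of each gene and list by fold, all sites in 1 list and all sites beyond 2-fold. Other sites named were chosen after their values were seen. A gene that the rule also named is not reported here. Promoter matches were counted over all listed promoters. Alternatives changed the window, the q threshold, list length, overlap, ranking measure and genes used. The code was tested on simulated data. The work used matplotlib 3.10.9, SciPy 1.17.1, pandas 2.3.3 and NumPy 2.4.6 under Python 3.11.15.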

Additional observations from a re-analysis of the deposited data

How the results depend on the processing

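Of 89 recomputed values under 11 alternatives, 85 stayed within 1.5 times of a count, fold or density, within the interval of a share, within 10 points of a percentile or within 0.5 of a log2 difference. The other 4 were counts of peaks in narrower windows, which hold fewer peaks by construction: in gene bodies alone there were 24 WT and 25 alphaKO peaks, and with flanks of 10 kb 31 and 30. No value was called by a test, so none could lose a call. Some limits were wide beside the results they checked, so staying within them does not show that these results were stable. The median log2 difference of -0.12 went from -0.22 (equal list lengths) to -0.01 (pileup) within its limit. The WT median percentile of 58.2 fell to 51.4 in gene bodies and 52.4 with −log10 q of at least 10, also within its limit. With pileup in place of fold, 2 sites stood more than 2-fold above the overall ratio and 4 below, in place of 4 and 4. No paired analysis was possible because each genotype had 1 ChIP library. Depth and duplicate rates of the libraries were not analysed here, so sites absent from a list cannot be told apart from sites under its threshold.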

Other observations

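The p53 family element stood at different shares in promoters that held a summit of each list. Of 987 listed promoters that held a WT summit, 4.05% had a best match with at most 2 mismatches and 9.93% an exact decamer. Of 476 that held an alphaKO summit, these shares were 9.24% and 16.2%, and over all 32851 promoters they were 0.798% and 8.36%. At looser limits the WT share was near that of all promoters. At most 4 mismatches were found in 33.3% (WT), 53.6% (alphaKO) and 30.2% (all), and at most 5 in 73.4%, 85.9% and 76.6%. In counts, 40 promoters with a WT summit and 44 with an alphaKO summit had at most 2 mismatches, among them that of Cd151 in both. These counts were close, while more promoters held a WT summit, although the WT list was the shorter. The difference between the lists was not tested. Promoters of 1 gene and of neighbouring genes can overlap, so they are not independent.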
